A study of Mus musculus with 6 samples.

Results

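The genes described here encode 10 scaffold proteins of the postsynaptic density, taken as a list by name, with a rule that uses no measured value: 4 membrane-associated guanylate kinases (Dlg1, Dlg2, Dlg3 and Dlg4), 3 SAPAP proteins (Dlgap1, Dlgap2 and Dlgap3) and 3 Shank proteins (Shank1, Shank2 and Shank3). They are 10 of the 55401 genes in the count files, and all 10 were among the 19969 genes with enough counts to be tested. The samples are dorsal hippocampi of male wild-type (WT) mice aged 4 months, littermates of the Ts65Dn line, which received 50 µg of antisense oligonucleotide (ASO) into the dorsal dentate gyrus (DG) of each hemisphere and were sampled 3 days later. In 3 samples (Snhg11-ASO) the ASO was directed at the long noncoding RNA Snhg11, which it marks for cleavage by RNase H, and in the other 3 (Control-ASO) it was a gapmer of equal length with a scrambled sequence. All 6 samples therefore carry surgery and an ASO, and neither group is untreated. The injection was aimed at the DG whereas the RNA was that of the whole dorsal hippocampus, so pyramidal cells, interneurons and glia were read together with granule cells.

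At a glutamatergic synapse the receptors sit in a dense protein sheet below the postsynaptic membrane. Dlg proteins form its upper layer and hold the tails of receptors and adhesion proteins in their PDZ domains, SAPAP proteins bind the guanylate kinase domain of the Dlg proteins, and Shank proteins bind SAPAP proteins from below and reach Homer and the actin cytoskeleton. In the hippocampus this lattice sets how many receptors a spine holds, and mutations in several of these genes are known from autism, schizophrenia or intellectual disability.

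None of the 10 scaffold genes passed the threshold for a difference between Snhg11-ASO and Control-ASO in edgeR, which called 0% of all genes tested. Dlg1 and Dlg2 were the members for which every Snhg11-ASO sample lay below every Control-ASO sample. Their means were at 77.7% (Dlg1) and 77.5% (Dlg2) of the Control-ASO mean. Such a separation held for 7.7% of all genes tested and for 28.7% of those above 200 kb, the class of both genes. Dlgap2 had the lowest fold change, but its groups overlapped. The group means of Dlg3, Dlg4, Dlgap1 and the 3 Shank genes differed by less than the SD of the Control-ASO samples. Those of Dlg1, Dlg2, Dlgap2 and Dlgap3 differed by more. The 5 members with a genomic span above 200 kb all had a fold change below 0, and for 3 of them (Dlg2, Shank2 and Dlgap1) it turned above 0 once each sample's trend with genomic span was removed.

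Total counts on genes ran from 28951250 to 43997537 per sample, and the scaling factors from 0.9817 to 1.019. Levels are given as CPM, the counts of a gene scaled to a common library total. Snhg11 itself had 551, 436 and 209 CPM with Control-ASO (replicates 1, 2 and 3, the order used throughout) and 139, 65.4 and 69.4 CPM with Snhg11-ASO, so its groups did not overlap, and its log2 fold change was -2.13 (adjusted p = 0.395 in edgeR). Snhg11-ASO replicate 1 stood apart, with rank correlations of 0.959 and 0.958 to the other Snhg11-ASO samples, which correlated at 0.991 with each other, whereas the Control-ASO samples correlated at 0.983 to 0.987. Values without it are given beside the fold changes that moved most. Among 63 marker genes of 11 cell types or neighbouring brain regions, 0 had a count of 0 in any sample. The summed CPM of the 7 neuronal markers was lower in the Snhg11-ASO samples (2675 to 2968 against 3030 to 3177). That of the 5 thalamic markers was higher (77.0 to 79.3 against 53.8 to 66.9), while the sums of the other 9 lists overlapped. Among those 9, all 6 oligodendrocyte markers were above 0 in the log2 fold change (median 0.28). All 6 cortical markers (median -0.40) and all 6 choroid plexus markers (median -0.70) were below 0. The remaining lists held genes on both sides of 0. Of the neuronal markers 6 were below 0 in the log2 fold change and 1 above, with the groups apart for Syt1 (-0.32) and Gad1 (-0.21). Syt1, a gene of 513 kb, had 915, 913 and 987 CPM against 737, 796 and 725 CPM. Without Syt1 the sums of the remaining neuronal markers overlapped between the groups. With the trend of genomic span removed Syt1 was at -0.08 and Gad1 at -0.22, and again 6 neuronal markers were below 0 and 1 above. Of the thalamic markers Prkcd alone had groups that were apart (0.76, adjusted p = 0.304 in edgeR and 0.000142 in DESeq2). The sums of the 6 choroid plexus markers ranged from 36.2 to 1890 CPM in the Control-ASO samples and from 67.8 to 1294 CPM in the Snhg11-ASO samples. The part of these shifts in the values below was not tested, and in RNA of a whole tissue fewer cells of a type and less RNA per cell cannot be told apart.

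**Figure D1:**
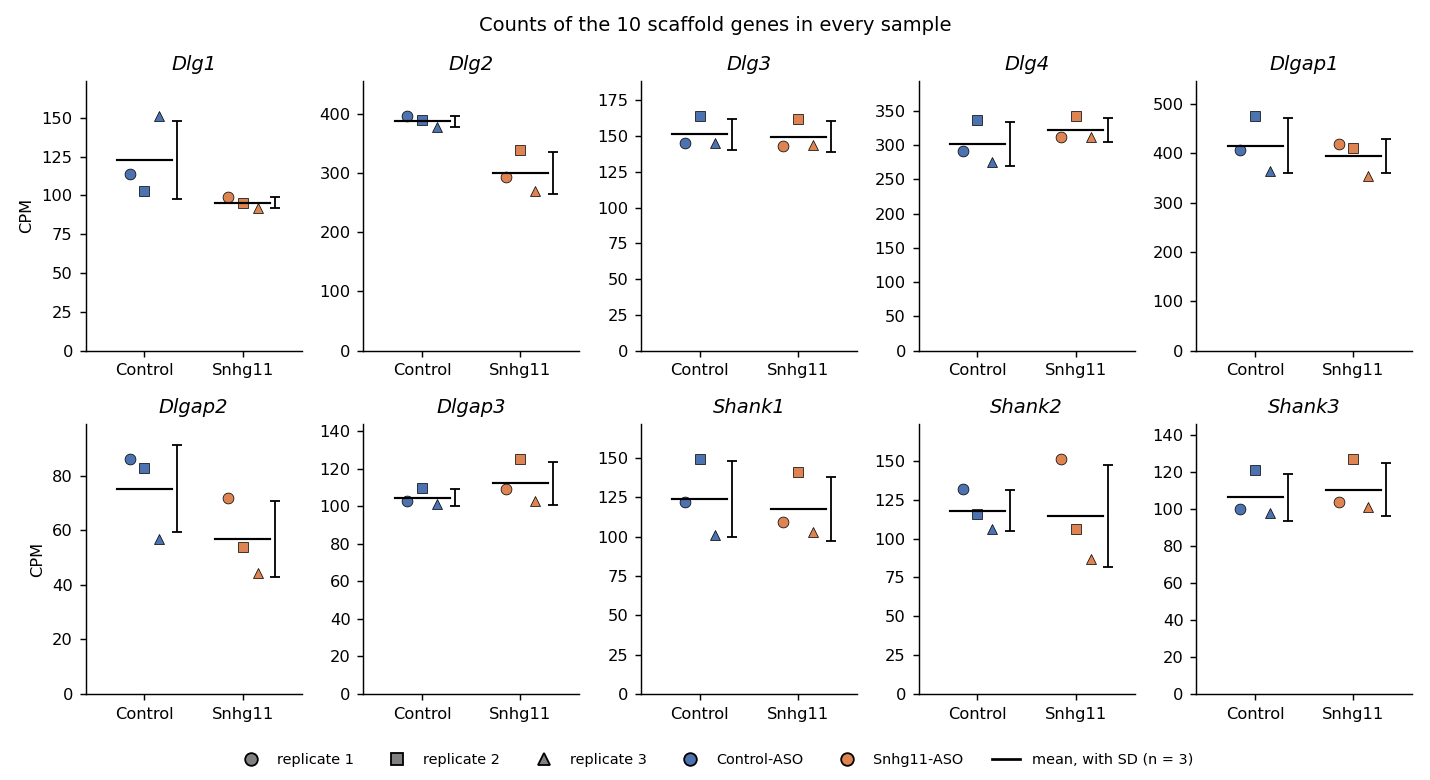
CPM (vertical axes, each starting at 0) of the 10 scaffold genes in the 3 Control-ASO samples (blue) and the 3 Snhg11-ASO samples (orange), with the group mean as a line and the SD as a bar. Only for Dlg1 and Dlg2 do all orange points lie below all blue points, and for no gene do all orange points lie above.

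Both genes without overlap belonged to the Dlg family. Dlg1 encodes SAP97, which carries AMPA receptors on their way to the membrane, and spans 211.7 kb of chromosome 16 (chr16:31663443-31875129, plus strand, GRCm38). With Control-ASO it had 114, 103 and 151 CPM, and with Snhg11-ASO 98.9, 95.2 and 91.9 CPM. The Snhg11-ASO samples were close to each other and all below the lowest Control-ASO sample, and Control-ASO replicate 3 stood high. The mean went from 123 ± 24.9 (SD, n = 3) to 95.3 ± 3.51 CPM (SD, n = 3). On the log2 scale the fold change was -0.36 (standard error 0.15, 95% interval -0.71 to -0.02). The quasi-likelihood test of edgeR gave it an unadjusted p of 0.0421 and an adjusted p of 0.596 (Benjamini-Hochberg, over the genes tested). Without Control-ASO replicate 3 it was -0.19.

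Dlg2 encodes PSD-93, a close relative of PSD-95 that binds NMDA receptors and potassium channels, and its 1973 kb on chromosome 7 (chr7:90476672-92449247, plus strand) make it the longest of the 10 genes. Its level was 396, 389 and 378 CPM with Control-ASO and 293, 339 and 269 CPM with Snhg11-ASO. The Control-ASO samples had a coefficient of variation of 2.44%, and the gap between the groups was wider than the range of these samples. Its mean was 388 ± 9.45 CPM (SD, n = 3) against 300 ± 35.4 CPM (SD, n = 3). On the log2 scale the difference was -0.37 (standard error 0.11, 95% interval -0.62 to -0.11), with an unadjusted p of 0.0115 and an adjusted p of 0.512 in edgeR. After removal of the trend with genomic span the fold change was 0.10 (adjusted p = 0.785), so the direction of the Dlg2 difference depends on that step. Without Snhg11-ASO replicate 1 it was -0.35. Exons of the noncoding genes Gm45159 and Gm45131 overlap those of Dlg2 on the same strand over 75 and 150 bases, 1.38% of its exon length, where read pairs count for neither gene.

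Dlg3 encodes SAP102, the family member prominent at young synapses, and lies on the X chromosome (chrX:100767722-100818410, plus strand). It had 145, 164 and 145 CPM with Control-ASO and 143, 162 and 144 CPM with Snhg11-ASO. The groups overlapped almost completely, with replicate 2 highest in both. The log2 fold change was -0.02 (standard error 0.10, 95% interval -0.25 to 0.21, adjusted p = 0.968 in edgeR).

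Dlg4 encodes PSD-95, the best known scaffold of mature excitatory synapses, and is the most compact member with a span of 30.58 kb (chr11:70016942-70047522, plus strand). It stood at 291, 337 and 275 CPM with Control-ASO and at 311, 342 and 312 CPM with Snhg11-ASO. The highest value of each group came from replicate 2, and Control-ASO replicate 2 lay inside the range of the Snhg11-ASO samples. The log2 fold change of 0.09 (standard error 0.11, 95% interval -0.16 to 0.35) had an adjusted p of 0.838 in edgeR. It stayed above 0 in all 18 alternatives, between 0.03 and 0.18.

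Of the SAPAP genes, Dlgap1 encodes SAPAP1, also called GKAP, the link between PSD-95 and Shank, and spans 852.3 kb (chr17:69969073-70821413, plus strand). Its values were 406, 475 and 365 CPM with Control-ASO against 418, 410 and 354 CPM with Snhg11-ASO, and the groups overlapped. The log2 fold change was -0.08 (standard error 0.13, 95% interval -0.38 to 0.23, adjusted p = 0.890 in edgeR), and it was 0.25 with the trend of genomic span removed and 0.03 without Control-ASO replicate 2.

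Dlgap2 encodes SAPAP2, a further adaptor of the same layer, and spans 751.8 kb (chr8:14095865-14847680, plus strand). The Control-ASO samples had 86.1, 82.8 and 57 CPM and the Snhg11-ASO samples 72.1, 54 and 44.4 CPM. Control-ASO replicate 3 fell inside the range of the Snhg11-ASO samples, while each Snhg11-ASO sample was below the Control-ASO sample of the same number, in 3 of 3 pairs. The means were 75.3 ± 16 and 56.8 ± 14.1 CPM (SD, n = 3 each), with a log2 fold change of -0.41 (standard error 0.22, 95% interval -0.93 to 0.12, unadjusted p = 0.110, adjusted p = 0.682 in edgeR). With the replicate number as a block the unadjusted p of Dlgap2 was 0.0107 (adjusted p = 0.484 in edgeR) and that of Dlg1 was 0.0531. Its fold change was -0.61 without Snhg11-ASO replicate 1, -0.26 without Snhg11-ASO replicate 3 and -0.10 with the trend of genomic span removed.

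Dlgap3 encodes SAPAP3, whose loss causes compulsive grooming in mice, and spans 67.82 kb (chr4:127169204-127237022, plus strand). Its values were 103, 110 and 101 CPM with Control-ASO and 109, 125 and 103 CPM with Snhg11-ASO. The groups overlapped, although in each of the 3 pairs of the same number the Snhg11-ASO sample was the higher. The log2 fold change was 0.10 (standard error 0.10, 95% interval -0.14 to 0.34, adjusted p = 0.818 in edgeR).

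All 3 Shank genes had overlapping groups and fold changes within 0.10 of 0. Shank1, a Shank protein that widens spine heads, spans 50.32 kb (chr7:44310253-44360572, plus strand) and had 122, 149 and 101 CPM with Control-ASO against 109, 141 and 103 CPM with Snhg11-ASO. Replicate 2 was the highest and replicate 3 the lowest in both groups. Its log2 fold change was -0.08 (standard error 0.18, 95% interval -0.50 to 0.34), and its adjusted p 0.924 in edgeR.

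Shank2, altered in some people with autism, spans 422.6 kb (chr7:144001928-144424494, plus strand). It had 132, 116 and 106 CPM with Control-ASO and 151, 106 and 86.8 CPM with Snhg11-ASO. Snhg11-ASO replicate 1 was the highest of the 6 samples and Snhg11-ASO replicate 3 the lowest, so the Snhg11-ASO group had a coefficient of variation of 28.8%, the widest of any member. The log2 fold change was -0.04 (standard error 0.20, 95% interval -0.52 to 0.44, adjusted p = 0.970 in edgeR). It was -0.29 without Snhg11-ASO replicate 1, 0.12 without Snhg11-ASO replicate 3 and 0.17 with the trend of genomic span removed.

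Shank3, the gene lost in Phelan-McDermid syndrome, spans 60.64 kb (chr15:89499623-89560261, plus strand). It stood at 100, 121 and 98.2 CPM with Control-ASO and at 104, 127 and 101 CPM with Snhg11-ASO. Each Snhg11-ASO sample was slightly above the Control-ASO sample of the same number, and the groups overlapped. The log2 fold change was 0.06 (standard error 0.13, 95% interval -0.24 to 0.37, adjusted p = 0.914 in edgeR). Without Snhg11-ASO replicate 2 it was -0.05.

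**Figure D2:**
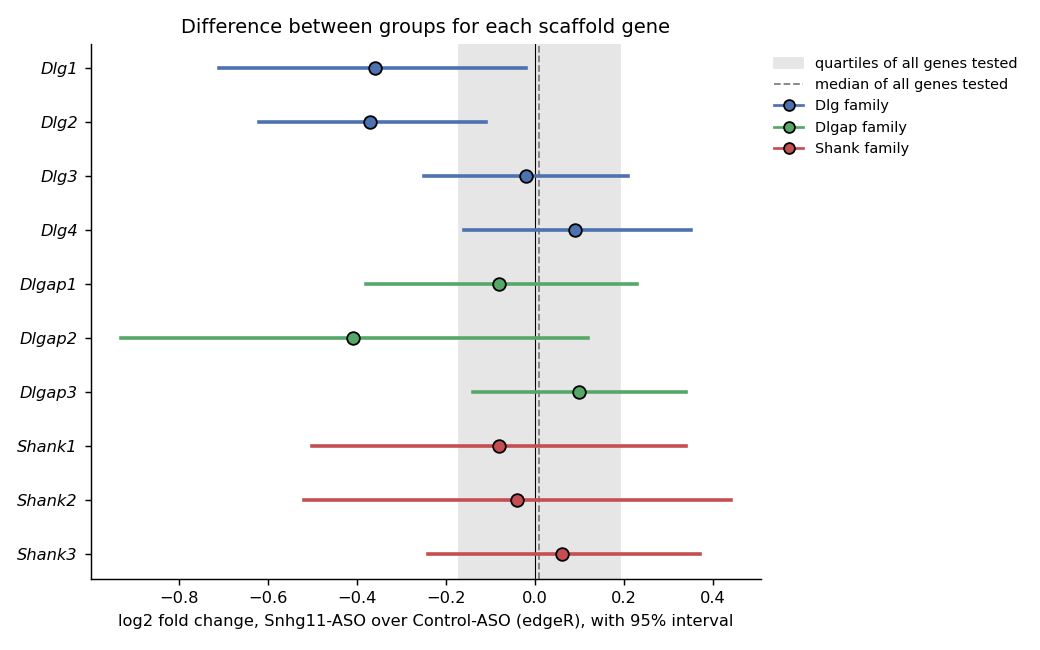
Log2 fold change of each scaffold gene (Snhg11-ASO over Control-ASO) with its 95% interval from edgeR, over the quartiles of all genes tested, -0.17 to 0.19, in grey and their median of 0.01 as a dashed line. The intervals of Dlg1 and Dlg2 lie below 0 before adjustment for the number of genes tested, and those of the other 8 genes include 0.

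Of the 10 genes, 7 had a fold change below 0 and 3 above, with a median of -0.06 beside 0.01 for all genes tested, 48.3% of which were below 0. Only 4 were below 0 with the trend of genomic span removed, without Control-ASO replicate 2 or without Snhg11-ASO replicate 3. The count past an adjusted p of 0.05 in edgeR was 0, against a background of 0% of the 19969 genes tested, the smallest adjusted p of any gene being 0.237. DESeq2 called 0 members as well, where it called 1.35% of 18570 genes, and its smallest adjusted p among the members was 0.191, for Dlg2. At an unadjusted p under 0.05 in edgeR, 2 members were lower (Dlg1 and Dlg2) and 0 were higher, beside 4.43% of all genes tested that were lower and 3.68% that were higher. The groups did not overlap for 2 members, both lower, beside 7.7% of all genes with every Snhg11-ASO sample lower and 7.73% with every one higher. Among genes above 200 kb, which include Dlg1 and Dlg2, 28.7% had every Snhg11-ASO sample lower. Among those above 500 kb, which include Dlg2, 51.1% did. For each of Dlg1 and Dlg2 the two-sided exact permutation test gave p = 0.1, the smallest that 3 samples against 3 allow. Dlg2 passed the adjusted threshold in 1 of 18 alternatives, DESeq2 without Snhg11-ASO replicate 2 (adjusted p = 0.0414), which called 1.41% of 18982 genes. The labels do not say that the samples of a group came from separate cages or days, and these p-values measure only the spread between them.

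Counting error was small beside the spread between samples. The members had between 1919 and 17155 counts in a sample. Counting alone, at the mean count of each gene over the samples, gives a coefficient of variation of 0.822% to 2.06%. That between samples of a group ran from 2.44% (Dlg2 in Control-ASO) to 28.8%. For the 8 members whose groups overlapped, the 95% intervals include no difference and give the range of sizes compatible with the data. That of Dlg3 reached from 84.3% to 115% of the Control-ASO level and that of Dlg4 from 89.6% to 127%, while that of Shank2 reached from 69.6% to 136%.

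Scaled to exon length (CPM per kb of merged exons), the 10 genes fell into an upper and a lower set of 5 in the Control-ASO samples. Dlg3 led with 26 ± 1.9 CPM per kb (SD, n = 3), followed by Dlg2 (23.8 ± 0.581), Dlgap1 (23.2 ± 3.1), Dlgap3 (23.2 ± 1.08) and Dlg4 (22.7 ± 2.45). The lower set held Dlgap2 (12.2 ± 2.6), Shank1 (11.8 ± 2.27), Shank3 (11.6 ± 1.36), Dlg1 (11.4 ± 2.32) and Shank2 (11 ± 1.21), so all Shank genes lay there. Between neighbours in this order the ranges of the Control-ASO samples were apart only between Dlg3 and Dlg2 and between Dlg4 and Dlgap2. In the Snhg11-ASO samples Dlg2 ranked 5 where it had ranked 2, at 18.5 ± 2.17 CPM per kb, and Dlg3 was again the highest at 25.6 ± 1.81. Merged exon length counts every annotated exon, including ones that hippocampal transcripts may not use.

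Within a family the share of each gene does not depend on how the libraries are scaled, but it is not corrected for genomic span. Of the summed CPM per kb of the 4 Dlg genes, Dlg2 made up 29.8%, 27.4% and 28% with Control-ASO and 24%, 25% and 22.6% with Snhg11-ASO. Dlg4 made up 26.8%, 29.2% and 25% with Control-ASO and 31.2%, 31% and 32.1% with Snhg11-ASO. Dlg3 made up 30.4%, 32.3% and 30.0% against 32.6%, 33.3% and 33.6%. None of these 3 shares overlapped between the groups: that of Dlg2 was lower by 4.54 percentage points, and those of Dlg4 and Dlg3 were higher by 4.41 and 2.26 points. Each had p = 0.1 in the exact permutation test, the smallest possible, and 0.333 after adjustment over the 10 shares. Shares of 1 family sum to 100%, so these 3 are not separate observations. Dlg2 spans 1973 kb, Dlg3 50.69 kb and Dlg4 30.58 kb. With the trend of genomic span removed their fold changes were 0.10, -0.03 and 0.07. Shares with that step, and a background of shares in other gene families, were not computed.

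Among the SAPAP genes, Dlgap2 held 23.5%, 20.9% and 17.8% of the family with Control-ASO and 19.8%, 14.8% and 14.5% with Snhg11-ASO. Dlgap3 held 38.3%, 37.9% and 42.9% against 40.7%, 46.6% and 45.7%. Both overlapped between groups (exact permutation test, p = 0.2 each, adjusted 0.4), and the share of Dlgap1 differed by -0.268 points. The Shank genes each held near equal parts, 34.2 ± 2.73% for Shank1, 32.1 ± 3.55% for Shank2 and 33.8 ± 2.13% for Shank3 (SD, n = 3 Control-ASO samples), with differences of -1.21, -0.809 and 2.02 points.

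**Figure D3:**
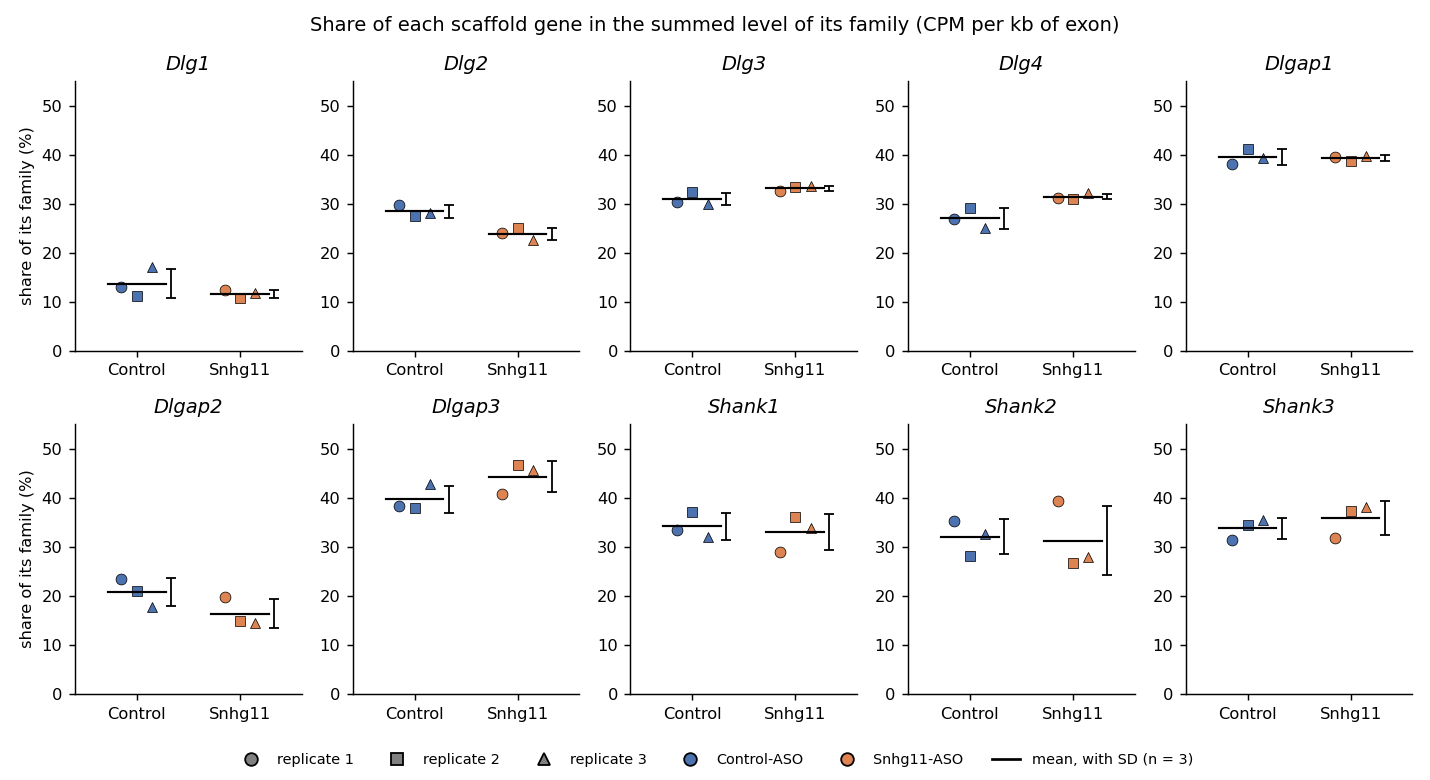
Share (%, vertical axes from 0) of each scaffold gene in the summed CPM per kb of its family, in the 3 Control-ASO samples (blue) and 3 Snhg11-ASO samples (orange), with mean and SD. The groups are apart for Dlg2 (lower), Dlg3 and Dlg4 (higher) and overlap for the other 7 genes.

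The members also differed by genomic span. The 5 members above 200 kb (Dlg1, Dlg2, Shank2, Dlgap1 and Dlgap2) were all below 0 in the log2 fold change, with a median of -0.36, while the 5 up to 200 kb (Dlg3, Dlg4, Shank1, Shank3 and Dlgap3) had a median of 0.06. All 986 tested genes above 200 kb had a median of -0.17 (quartiles -0.39 and 0.00), 74.6% of them were below 0 and 28.7% had every Snhg11-ASO sample below every Control-ASO sample. Genes of 50 to 200 kb had a median of 0.01 and those under 50 kb one of 0.02. Read against their own class, Dlg1, Dlg2 and Dlgap2 lay near or below its lower quartile, and Shank2 and Dlgap1 lay between its median and its upper quartile. Above 500 kb, the median of the 223 genes tested was -0.37, and so was that of Dlg2, Dlgap1 and Dlgap2. Of these 223 genes 51.1% had every Snhg11-ASO sample below every Control-ASO sample. The long members differed between samples of 1 group too: their median deviation from the Control-ASO mean on the log2 scale was 0.03, 0.00 and -0.15 with Control-ASO and -0.04, -0.19 and -0.44 with Snhg11-ASO. The groups overlapped, while within pairs of the same number the Snhg11-ASO sample was the lower in 3 of 3. Their median fold change was -0.19 without Control-ASO replicate 3 and -0.35 without Snhg11-ASO replicate 1. The 5 shorter members had median deviations of -0.04, 0.17 and -0.11 against -0.02, 0.20 and -0.06, and within pairs the Snhg11-ASO sample was the higher in 3 of 3.

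With offsets that remove the trend of each sample with genomic span, the fold changes of the 5 long members were -0.26 for Dlg1, 0.10 for Dlg2, 0.17 for Shank2, 0.25 for Dlgap1 and -0.10 for Dlgap2, and 0 members had an unadjusted p under 0.05, beside 7.48% of all genes tested. The shorter members moved by at most 0.02. The adjusted p of Dlg1 in edgeR with these offsets was 0.719. The part of span itself in these values was not tested.

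**Figure D4:**
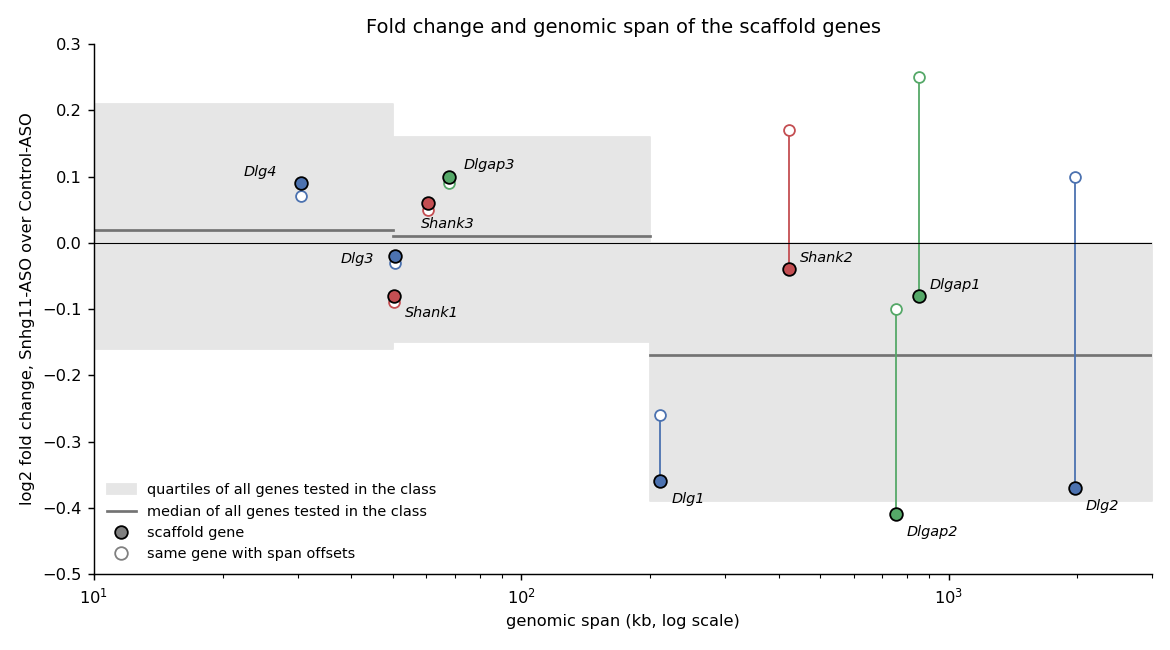
Log2 fold change of each scaffold gene (filled points) against its genomic span (kb, log scale), with the median (grey lines) and quartiles (grey areas) of all genes tested under 50 kb, from 50 to 200 kb and over 200 kb. Open points show the same genes after removal of the trend with span, where Dlg2, Shank2 and Dlgap1 lie above 0 and Dlg1 and Dlgap2 below.

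RNA levels of related genes were read from 6 lists of 54 genes, all of which were tested. The lists held partners of the scaffolds, but also other Dlg and SAPAP genes, other PDZ scaffolds, enzymes of PSD-95 palmitoylation and scaffolds of inhibitory synapses. Among these 54 genes, 27 were below 0 and 27 above, and the median log2 fold change was 0.00. The adjusted threshold in edgeR was passed by 0 of them, with 0.528 as the smallest adjusted p. Of the 54 genes, 3 were lower at an unadjusted p under 0.05 (Cit, Magi1 and Lrrc7) and 0 were higher, beside 4.43% and 3.68% of all genes tested, so the count of lower genes is near the background. DESeq2 gave Cit an adjusted p of 0.111, Lrrc7 one of 0.354 and Magi1 one of 0.356.

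Among 15 signalling and adaptor proteins that bind PSD-95 or its relatives, 10 were below 0 and 5 above, with a median of -0.08. With the trend of span removed 6 were below 0 and 9 above, and the median was 0.11. The groups were apart for 4 of the 15 genes, all lower, beside 7.7% of all genes tested that were lower in this way. Cit encodes citron, which binds PSD-95 in neurons and whose gene also makes a kinase of dividing cells. It had 48.0, 30.9 and 58.5 CPM with Control-ASO and 30.7, 26.3 and 23.3 CPM with Snhg11-ASO. The groups were just apart, and its log2 fold change of -0.77 (standard error 0.24, unadjusted p = 0.0134) was the lowest of the 54. Without Snhg11-ASO replicate 1 it was -0.88 in DESeq2 (adjusted p = 0.0274), in a fit that called 346 of 15872 genes. Lrrc7 encodes densin-180, a partner of Shank and of CaMKII. It had 306, 305 and 258 CPM against 240, 248 and 210 CPM, again without overlap, for a log2 fold change of -0.32 (unadjusted p = 0.0252), or -0.09 with the trend of span removed. Tanc1, a scaffold with ankyrin repeats, was the highest of the list at 0.44, or 0.12 without Snhg11-ASO replicate 1.

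Of 10 Homer proteins and actin-linked partners of Shank, 7 were above 0 and 3 below, with a median of 0.11 and 0 at an unadjusted p under 0.05 in edgeR. Homer1, whose long form ties Shank to metabotropic glutamate receptors and whose short form is induced by activity, was the highest at 0.34. It had 172, 155 and 170 CPM with Control-ASO and 260, 192 and 177 CPM with Snhg11-ASO, so all Snhg11-ASO samples were higher, most of all replicate 1 (unadjusted p = 0.0611), without which the log2 fold change was 0.16. Counts per gene do not separate its forms. Homer2 was the lowest at -0.37, with 113, 154 and 97.4 CPM against 84.9, 106 and 90.7 CPM and overlapping groups, and stood at -0.16 without Control-ASO replicate 2.

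Other PDZ scaffolds of glutamatergic synapses were below 0 in 8 of 11 cases, with a median of -0.14 (-0.05 without Snhg11-ASO replicate 1). With the trend of span removed 8 were below 0 and 3 above, and the median was -0.10. Their summed level was 647 to 653 CPM in the Control-ASO samples against 599 to 643 CPM in the Snhg11-ASO samples. Magi1, a multi-PDZ protein of cell junctions, had 75.1, 79.3 and 77.9 CPM against 50.1, 66.5 and 63.7 CPM. The groups did not overlap, and the log2 fold change of -0.37 (unadjusted p = 0.0197) was -0.10 with the trend of span removed, its gene being 608 kb long, and -0.25 without Snhg11-ASO replicate 1. Cask, a kinase-like scaffold that binds neurexins, was the highest at 0.11. With the trend of span removed it was at 0.29 and no longer the highest of the list.

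In the other lists no gene had an unadjusted p under 0.05 in edgeR. Enzymes that add palmitate to PSD-95 or take it off ranged from -0.33 (Zdhhc15, an acyltransferase) to 0.31 (Abhd17c, of the depalmitoylase family), with a median of 0.01 over 7 genes. Zdhhc15 was at -0.04 without Snhg11-ASO replicate 1, and Abhd17c at 0.20 without Control-ASO replicate 3. Scaffold proteins of inhibitory synapses ranged from -0.16 (Fam196a) to 0.21 (Nlgn2, the neuroligin of inhibitory synapses), with a median of 0.04 over 8 genes. Fam196a was at -0.40 without Snhg11-ASO replicate 1 and at -0.01 without Snhg11-ASO replicate 2, and Nlgn2 was at -0.07 without Snhg11-ASO replicate 1. The remaining relatives of the scaffolds ran from Dlgap4 at -0.02 to Dlg5, which also acts in epithelial polarity, at 0.43, with Dlgap5 between them. Dlg5 was at 75.5 CPM in Snhg11-ASO replicate 1 and at 28.3 to 46.4 CPM in the other 5 samples, and without that replicate its fold change was -0.09.

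**Figure D5:**
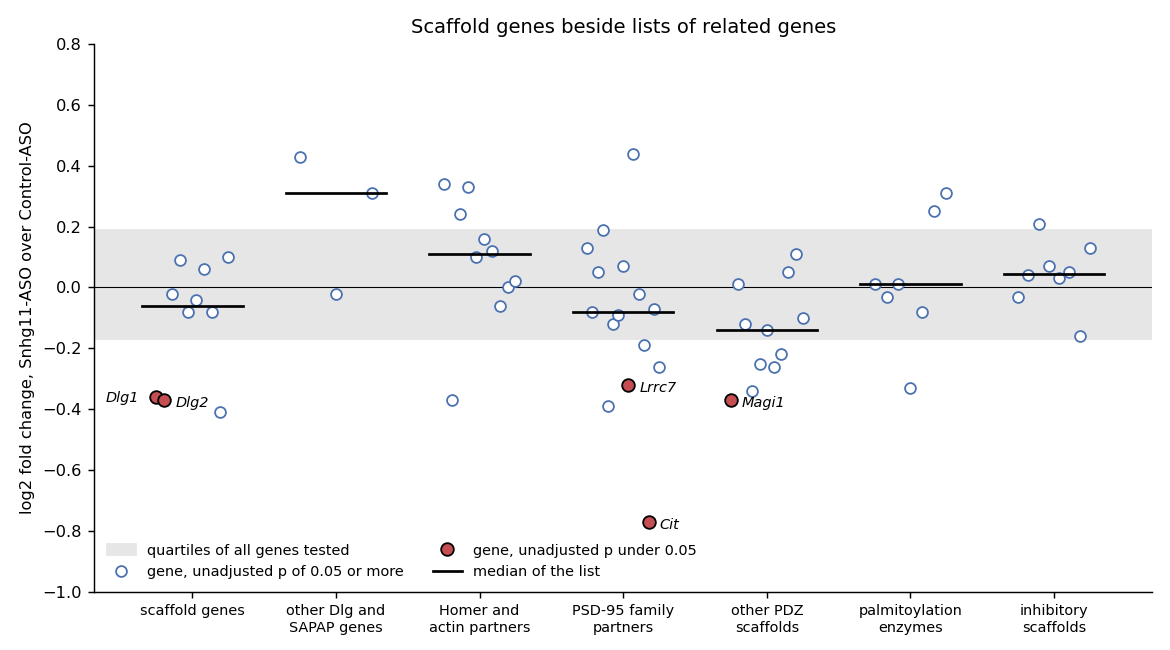
Log2 fold change (vertical axis) of the 10 scaffold genes and of the genes of 6 related lists, with the median of each list as a black line and the quartiles of all genes tested, -0.17 to 0.19, in grey. Red points mark an unadjusted p under 0.05, which holds for Dlg1, Dlg2, Lrrc7, Cit and Magi1, all of them below 0.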

How the data were processed

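RNA of the dorsal hippocampus was sequenced as strand-specific total RNA libraries, 3 Control-ASO and 3 Snhg11-ASO. Per the labels the authors used STAR (2.5.2a) on mm10 (GRCm38), and the deposited files hold raw counts of read pairs per gene, not normalized, in the layout STAR writes. Counting is credited to Rsubread in the paper's methods, which also state that 1 Snhg11-ASO sample, not named, was removed from the test, so all 6 samples were kept here. Counts of the reverse strand were used. The 4 summary lines, which name no gene, held 43.5% to 51.4% of the pairs and were left out. Gene names, spans and exon lengths came from GENCODE M21, which matched 55141 of 55401 identifiers (Insyn2a is listed there as Fam196a).

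Genes were filtered with filterByExpr (minimum count 10), scaled with TMM factors and tested with edgeR's quasi-likelihood test at an adjusted p of 0.05 (R 4.3.3, edgeR 4.0.16), tested on simulated data beforehand. The biological coefficient of variation was 0.266. Single values were tested with a two-sided exact permutation test (scipy 1.17.1). The members and gene lists were chosen with earlier results of these data known. Named are all members, Snhg11, and in each related list the lowest and highest gene and those with an unadjusted p under 0.05, while marker genes are named from the lists whose sums were apart between the groups, where their own groups were apart. Deviations of samples with the same number from their group means correlated at 0.297, 0.179 and 0.103. Samples of different numbers were not compared in this way, so these values do not show that the numbers pair the samples. The comparisons within pairs of the same number are descriptions only. The main fit and the permutation tests were unpaired, and the replicate block was an alternative. The labels do not say that samples of the same number share a day or litter. Alternatives were DESeq2 1.42.0, with all samples and without each Snhg11-ASO sample, its size factors in edgeR, no filter, both strands, the replicate block, offsets for genomic span or GC content with and without the block, and leaving out each sample. The median of the long members under these alternatives was added after seeing the data.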

Additional observations from a re-analysis of the deposited data

Results flagged for a closer look

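Counts on the strand opposite to Dlgap1 were higher in the Snhg11-ASO samples, and among the values above these counts enter only the alternative with both strands. Such counts numbered 21, 13 and 22 with Control-ASO and 67, 33 and 35 with Snhg11-ASO, which in CPM of the plain totals on genes is a mean of 0.59 against 1.11. All Snhg11-ASO values (1.74, 0.788 and 0.795 CPM) lay above all Control-ASO values (0.725, 0.379 and 0.665 CPM), and the two-sided exact permutation test gave p = 0.1, the smallest that 3 samples against 3 allow. They were at most 0.419% of the counts of the gene on both strands, and an exon of the noncoding gene AC079441.1 overlaps those of Dlgap1 on that strand over 92 bases. For Dlg2 and Dlgap3 the CPM on the opposite strand was lower in every Snhg11-ASO sample, with means of 0.24 against 0.363 and 0.096 against 0.221 CPM. These values rest on few counts. Dlg2 had 10, 10 and 15 with Control-ASO and 8, 10 and 12 with Snhg11-ASO, and Dlgap3 had 8, 6 and 7 against 3, 5 and 4. The groups of the remaining members overlapped. How often such counts were apart over all genes was not computed.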

How the results depend on the processing

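Over the 18 alternatives the members called stayed at 0, except for 1 (Dlg2) in DESeq2 without Snhg11-ASO replicate 2. Members at an unadjusted p under 0.05 numbered 1 to 2 with each sample left out in edgeR (Dlg2 each time), 1 to 4 in DESeq2 without each Snhg11-ASO sample (4 without replicate 1: Dlg1, Dlg2, Shank2 and Dlgap2), 3 with no filter and 0 with the span offsets, with or without the block. The shares of all genes at this p were 4.36% to 9.94% with a sample left out in edgeR, 10.4% to 10.7% in these fits of DESeq2, 6.34% with no filter and 7.48% with the span offsets. With span offsets and block the share was 7.89%. Members whose groups did not overlap numbered 2 to 4 with a sample left out, Dlg1 and Dlg2 each time. They were 4 without Control-ASO replicate 2, with Dlg4 and Shank3 higher, and 4 without Snhg11-ASO replicate 1, with Shank2 and Dlgap2 lower, while 22.7% to 28.3% of all genes did not overlap with a sample left out. The median over the members ran from -0.14 to 0.06. The median over the long members was 0.10 with the span offsets, alone or with the block, and -0.36 to -0.19 with each sample left out. Snhg11 passed the threshold in DESeq2 (-2.13, adjusted p = 3.79e-05) and in DESeq2 without each Snhg11-ASO sample (-2.56, -1.94 and -1.97), not in edgeR (-2.56 to -1.83 with each sample left out).

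With the replicate number as a block, 2 members had an unadjusted p under 0.05 in edgeR (Dlg2 and Dlgap2), beside 8.59% of all genes tested. The count called was 0 and the Dlg1 fold change was -0.34. The block changed no adjusted call.

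The direction held in every alternative for Dlg1, Dlg4, Dlgap2 and Dlgap3. With the span offsets it turned for Dlg2 (0.10), Shank2 (0.17), Dlgap1 (0.25) and Dlgap4 (0.04), and with span offsets and block for Dlg2 (0.10), Shank2 (0.14), Dlgap1 (0.25) and Dlgap4 (0.03). With a sample left out, the fold changes ran from -0.08 to 0.04 for Dlg3, -0.23 to 0.07 for Shank1, -0.29 to 0.12 for Shank2, -0.05 to 0.16 for Shank3, -0.17 to 0.03 for Dlgap1, -0.16 to 0.09 for Dlgap4, -0.09 to 0.69 for Dlg5 and -0.07 to 0.36 for Nlgn2. Dlg3 turned without Control-ASO replicate 2 (0.04) and without Snhg11-ASO replicates 1 or 3 (0.01 each, in DESeq2 0.01 and 0.00). Shank1 turned without Control-ASO replicate 2 (0.07) and Snhg11-ASO replicate 3 (0.01, in DESeq2 0.00). Shank2 turned without Control-ASO replicate 1 (0.04) and Snhg11-ASO replicates 2 (0.01, in DESeq2 0.00) or 3 (0.12 in both). Dlgap4 turned without Control-ASO replicate 1 (0.01) and Snhg11-ASO replicates 2 (0.00) or 3 (0.09, in DESeq2 0.08). Dlgap1 turned without Control-ASO replicate 2, Shank3 without Snhg11-ASO replicate 2, and Dlg5 and Nlgn2 without Snhg11-ASO replicate 1. The difference in family share ran from -2.77 to 0.805 points for Shank1, -4.82 to 1.53 for Shank2 and -0.979 to 0.574 for Dlgap1. That of Shank1 turned without Control-ASO replicate 2 (0.307 points) and Snhg11-ASO replicate 1 (0.805), that of Shank2 without Control-ASO replicate 1 (0.795) and Snhg11-ASO replicates 2 (1.53) or 3 (0.859), and that of Dlgap1 without Control-ASO replicate 2 (0.574) and Snhg11-ASO replicate 2 (0.0691). The cause of these turns was not tested.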
